A study of Mus musculus with 80 samples.

Results

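The 9 genes described here encode receptors through which hormones and mediators make the uterus contract or relax around birth. They are Oxtr, Avpr1a, Ptgfr, Ptger1, Ptger2, Ptger3, Ptger4, Adra1a and Rxfp1, taken as a named list from 21627 protein-coding genes, and all 9 were found in the annotation. H3K27me3, a histone mark of genes held silent by the Polycomb complexes, was mapped by CUT&RUN, in which an antibody guides a nuclease to cut out the marked chromatin. Fibroblasts were prepared from mouse uterine wall by enzyme digestion and magnetic beads. In the Kdm6b set, conditional knockout (cKO) mice carried a floxed Kdm6b gene, which encodes a demethylase that removes this mark, with a Cre driver, and Kdm6b f/f mice without a named Cre were the controls, so both carried the floxed allele. Females of this set had been mated with a B6 male.

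Pgr-Cre drives deletion in cells that express the progesterone receptor, and its cKO and control groups were taken at GD5.5, GD8.5 and GD14.5 between implantation sites (IIS) and at GD14.5 and GD18.5 at implantation sites (IS), where GD is the gestation day. Pdgfra-Cre, which is active in fibroblasts and other mesenchymal cells, gave a sixth pair at GD14.5 IS. The 4 B6CBAF1/J groups with no deletion were a separate set, namely naturally mated females at GD5.5 (IIS), females mated with a vasectomized male at GD5.5 (uterus), non-pregnant females given progesterone for 3 days (uterus), and females at GD0.5 (uterus). Animal ages were not given in the labels used here. Each group is 1 peak list made from 3 pooled samples, 16 lists in all, which leaves no values for single samples, and the 6 cKO and control pairs are the repeats. Read depth is unknown from these files.

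Oxytocin receptor and the F prostaglandin receptor act through Gq to raise calcium in uterine muscle and drive contraction, while receptors coupled to Gs raise cyclic AMP and relax it. Progesterone keeps contraction genes low during pregnancy, and their rise near term is a known step towards birth. Polycomb marking is usually strongest over CpG-rich gene starts and can spread from there over a gene.

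The start regions of 4 receptors are shown because the annotated start lay inside a peak in all lists, in most lists or in few. Promoters of 6 of the 9 members were found in the RefSeq table (GRCm38.p6, the mm10 coordinates), and each runs from 250 bases before to 50 bases after the start, on the gene's own strand. Capitals mark CG dinucleotides. The Oxtr window is chr6:112489776-112490075, minus strand. The annotated Oxtr start, 112489825, lies inside the gene span, which begins at 112491035 on this strand. The Oxtr window therefore does not show the outer end of that span. The Ptgfr window is chr3:151837479-151837778, minus strand. The Ptger4 window is chr15:5244138-5244437, minus strand. The Avpr1a window is chr10:122448249-122448548, plus strand.
Avpr1a: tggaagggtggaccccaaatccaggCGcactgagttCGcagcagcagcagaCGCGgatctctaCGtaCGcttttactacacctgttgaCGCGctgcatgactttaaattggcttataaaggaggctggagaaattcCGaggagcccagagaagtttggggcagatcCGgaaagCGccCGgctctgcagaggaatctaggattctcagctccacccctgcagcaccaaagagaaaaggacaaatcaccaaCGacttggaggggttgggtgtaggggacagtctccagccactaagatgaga
Oxtr: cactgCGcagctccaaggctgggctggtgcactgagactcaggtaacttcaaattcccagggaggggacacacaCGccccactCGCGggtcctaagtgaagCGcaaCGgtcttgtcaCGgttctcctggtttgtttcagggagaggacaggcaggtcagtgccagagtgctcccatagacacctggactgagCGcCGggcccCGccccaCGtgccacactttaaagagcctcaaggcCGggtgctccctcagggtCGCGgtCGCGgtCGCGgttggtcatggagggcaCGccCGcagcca
Ptgfr: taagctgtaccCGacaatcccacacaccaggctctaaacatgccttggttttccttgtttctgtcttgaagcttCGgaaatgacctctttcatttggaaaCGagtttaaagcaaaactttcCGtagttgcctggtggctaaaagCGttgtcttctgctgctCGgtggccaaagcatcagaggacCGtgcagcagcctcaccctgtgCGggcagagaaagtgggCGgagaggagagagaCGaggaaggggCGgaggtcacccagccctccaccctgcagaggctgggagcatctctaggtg
Ptger4: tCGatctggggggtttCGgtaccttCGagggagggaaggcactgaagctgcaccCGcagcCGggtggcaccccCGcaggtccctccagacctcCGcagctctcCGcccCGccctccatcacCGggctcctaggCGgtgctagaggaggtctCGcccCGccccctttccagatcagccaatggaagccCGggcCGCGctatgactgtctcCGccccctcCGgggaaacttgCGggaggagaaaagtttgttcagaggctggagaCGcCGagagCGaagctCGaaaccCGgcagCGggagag

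Oxtr had 20 CG dinucleotides in this window, more than 63.5% of the 17273 promoters read the same way, whose median was 14. Ptger4 had 25 and Ptger3 had 27, while Avpr1a had 13, Ptgfr 11 and Ptger2 only 3. The Oxtr window lay wholly inside peaks in 13 of 16 lists, and it was untouched in the other 3, which were control GD14.5 IIS, progesterone and GD0.5. The Avpr1a, Ptger2 and Ptger3 windows lay wholly inside peaks in all 16 lists. For Ptger4 this held in 4 of 6 cKO lists, 1 of 6 control lists and 0 of 4 B6CBAF1/J lists. CG count did not order the genes by how often their start was covered, since Ptger2 had the lowest count and a covered start in every list. The AP-1 motif TGANTCA was in none of the 6 windows on either strand, against 7.14% of all promoters, and TGTTCT, the core hexamer of the element bound by the progesterone receptor, was found only in Ptger2, 2 times over both strands, against 16.4% of all promoters.

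Coverage below is the percent of a gene's span plus 2 kb on either side that lay inside peaks. The 9 receptors fell into very different states of the mark. Avpr1a, the vasopressin receptor that is the closest relative of the oxytocin receptor in this list and also couples to Gq, was covered at 100% in all 16 lists. Ptger1, the EP1 receptor for prostaglandin E2, had no peak in any list, and Rxfp1, the relaxin receptor, was at 0 in 12 lists and reached 1.91% at most, in Pgr-Cre cKO at GD14.5 IS. The other 6 receptors were covered in part.

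Peaks of these genes were weak by the authors' own scores, as were most peaks of the lists. Of 680 peaks that touched a member in the 16 lists, 653 had a −log10 q under 1 and 4 reached 2, and the median fold over background was 1.12. The 4 were the Avpr1a peak in control GD8.5 IIS (2.60) and in the control of Pdgfra-Cre (2.65), and the Ptger2 peak in control GD8.5 IIS (2.23) and in the progesterone list (2.2005). Peaks covered 685 to 740 Mb in the 6 cKO lists and 609 to 731 Mb in the 6 control lists. The part of these totals in the differences below was tested only by cutting each list to an equal covered length.

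In the cKO lists 3 of the 7 receptors that could be tested were more covered by H3K27me3 peaks than in their controls: Adra1a by 17.9 points, Oxtr by 14.3 points and Ptgfr by 9.70 points, each higher in 6 of 6 pairs. None was lower. The other 4 tested members, Avpr1a, Ptger2, Ptger3 and Ptger4, did not pass. The test was limma on the 6 paired differences over the 10204 genes whose coverage averaged at least 5%, with Benjamini-Hochberg adjusted p under 0.05. By that rule 7.98% of all tested genes were higher in cKO and 6.45% were lower, and the median difference was 8.43 points over the 7 tested members and 0 over all genes. Ptger1 and Rxfp1 fell under the mean of 5%, and Avpr1a could not differ because every list held it at 100%.

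These 3 calls were close to the threshold. With all lists of the set cut to an equal covered length, 0 of 6 tested members passed, and the differences were 13.8 points for Adra1a (adjusted p = 0.0725), 9.70 for Oxtr (adjusted p = 0.175) and 6.27 for Ptgfr (adjusted p = 0.0856). Over all genes that fit called 267 higher and 374 lower in cKO, against 814 higher and 658 lower with the lists as deposited. Leaving out 1 pair at a time left 0 or 1 member passing. The adjusted p of Oxtr was then 0.0196 to 0.0736 and passed only without the GD18.5 IS pair. That of Ptgfr was 0.0478 to 0.108 and passed only without the Pdgfra-Cre pair. That of Adra1a was 0.0363 to 0.0809 and passed only without the GD5.5 IIS pair or without the Pgr-Cre GD14.5 IS pair. The mean differences kept their sign throughout, at 12.6 to 16.8 points for Oxtr, 7.62 to 10.7 for Ptgfr and 14.6 to 20.4 for Adra1a.

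**Figure D1:**
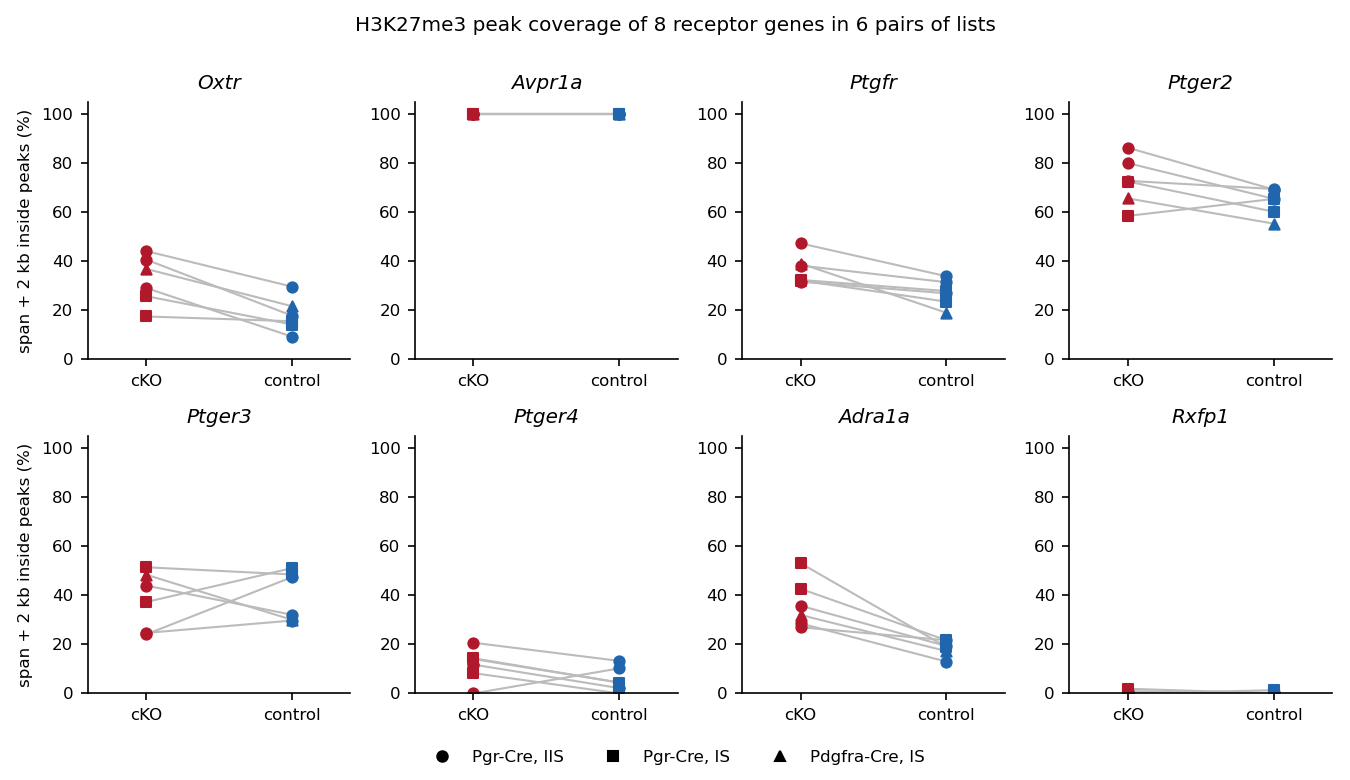
Percent of each receptor gene's span plus 2 kb inside H3K27me3 peaks (y axis) in cKO lists (left, red) and control lists (right, blue). Each line joins 1 cKO list with its control list, and symbols give the Cre line and site. Adra1a lies between 26.96% and 53.0% in cKO and between 12.9% and 21.7% in control. Ptger1, at 0 in all lists, is not drawn.

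Oxtr encodes the oxytocin receptor, which makes the pregnant uterus respond to oxytocin. In the Pgr-Cre cKO lists it was covered at 44.1% at GD5.5 IIS, 40.6% at GD8.5 IIS, 29.01% at GD14.5 IIS, 25.7% at GD14.5 IS and 17.4% at GD18.5 IS, and in the Pdgfra-Cre cKO list at 36.8%. The control lists had 29.6% at GD5.5 IIS, 17.7% at GD8.5 IIS, 9.17% at GD14.5 IIS, 14.1% at GD14.5 IS and 15.5% at GD18.5 IS, and the control of Pdgfra-Cre had 21.6%. Every cKO list stood above its own control, while the 2 groups overlapped across stages. With an equal covered length this held in 5 of 6 pairs, and the GD18.5 IS pair turned round, with 0% in cKO and 4.78% in control. The mean was 32.3 ± 10.0% in cKO and 17.9 ± 7.01% in control (SD, n = 6 lists each), a difference of 14.3 ± 7.29 points (SD of the 6 differences; limma adjusted p = 0.0287). The smallest difference was 1.93 points at GD18.5 IS, the latest stage, and the largest was 22.9 points at GD8.5 IIS.

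In 13 of 16 lists a peak lay over the annotated start of Oxtr. That start is inside the gene span, so distances before it take in part of the gene. The peak that held the annotated start was 3.72 to 8.29 kb long in the 6 cKO lists and 1.02 to 4.50 kb long in the 5 control lists that had one. At GD5.5 IIS it ran from 2.52 kb before to 5.76 kb after the start in cKO, and from 1.38 kb before to 3.12 kb after it in control. Within 10 kb on either side of the start, peaks covered 6.98 kb on average in cKO and 3.83 kb in control, 3.15 ± 1.69 kb more (SD, 6 of 6 pairs). The fold over background of the start peak was 1.13 to 1.36 in cKO lists and 1.26 to 1.61 in control lists, values scaled within each list and not compared between lists. This window, like the 3 parts of Adra1a below, was chosen after the values were seen and carries no test.

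Both genotypes showed less Oxtr coverage at later IIS stages. The step from GD5.5 to GD8.5 IIS was −3.50 points in cKO and −11.9 points in control, and the step from GD8.5 to GD14.5 IIS was −11.6 points in cKO and −8.54 points in control. From GD14.5 to GD18.5 IS it was −8.27 points in cKO and 1.33 points in control. Each of these steps compares 1 pooled list with another and has no replicate check.

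Ptgfr encodes FP, the receptor for prostaglandin F2α, which in mice is needed for the corpus luteum to regress before birth and also drives uterine contraction. In the Pgr-Cre cKO lists it was covered at 47.2% at GD5.5 IIS, 38.2% at GD8.5 IIS, 31.6% at GD14.5 IIS, 32.1% at GD14.5 IS and 32.3% at GD18.5 IS, and in the Pdgfra-Cre cKO list at 39.0%. The control lists had 33.8% at GD5.5 IIS, 31.4% at GD8.5 IIS, 26.9% at GD14.5 IIS, 23.4% at GD14.5 IS and 27.8% at GD18.5 IS, and the control of Pdgfra-Cre had 18.9%. The Pdgfra-Cre pair differed most, by 20.1 points, and the GD18.5 IS pair least, by 4.54 points. With an equal covered length cKO was higher in 5 of 6 pairs, and the Pgr-Cre GD14.5 IS pair had 18.2% in cKO and 18.3% in control. The mean was 36.7 ± 6.08% in cKO and 27.03 ± 5.37% in control (SD, n = 6 lists each), a difference of 9.70 ± 6.04 points (limma adjusted p = 0.0461).

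Close to the Ptgfr start the 2 genotypes did not overlap in the lists as deposited. The share of all genes that separate in this way was not computed, and the 10 kb window was chosen after the values were seen. With an equal covered length, coverage of the span plus 2 kb did overlap, at 17.8 to 36.6% in cKO and 10.5 to 23.9% in control. Within 10 kb on either side of the start, peaks covered 12.7 to 17.6 kb in the 6 cKO lists and 8.37 to 10.7 kb in the 6 control lists, a difference of 5.90 ± 2.21 kb (SD, 6 of 6 pairs). The peak over the start was 8.04 to 14.9 kb long in cKO lists and 4.03 to 8.48 kb long in control lists. It began 2.67 to 8.56 kb before the start in cKO lists and 1.12 to 2.22 kb before it in control lists, so part of the added length lay upstream of the gene, outside most of the span that the coverage measures.

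**Figure D2:**
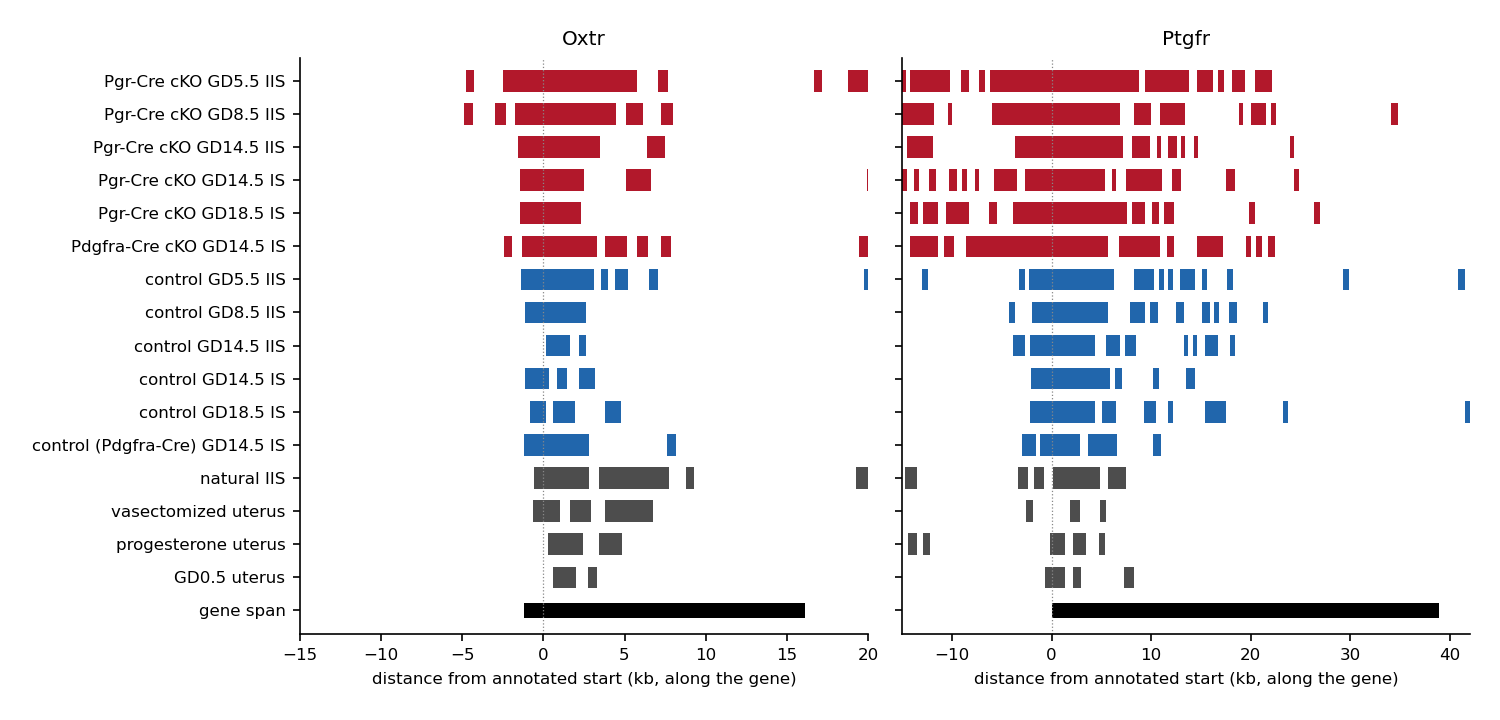
Peaks around Oxtr and Ptgfr in the 16 lists (rows, cKO in red above control in blue above B6CBAF1/J in grey), drawn by distance from the annotated start in kb along the direction of the gene. The black bar is the gene span. The blocks over the start of Ptgfr are 8.04 to 14.9 kb long in cKO lists and 4.03 to 8.48 kb long in control lists.

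Adra1a encodes the alpha-1A adrenergic receptor, another Gq-coupled receptor, through which noradrenaline contracts smooth muscle. In the Pgr-Cre cKO lists it was covered at 26.96% at GD5.5 IIS, 28.5% at GD8.5 IIS, 35.7% at GD14.5 IIS, 53.0% at GD14.5 IS and 42.6% at GD18.5 IS, and in the Pdgfra-Cre cKO list at 31.97%. The control lists had 21.7% at GD5.5 IIS, 12.9% at GD8.5 IIS, 19.3% at GD14.5 IIS, 18.9% at GD14.5 IS and 21.7% at GD18.5 IS, and the control of Pdgfra-Cre had 17.2%. In the lists as deposited the lowest cKO list stood above the highest control list. The share of all genes that separate in this way was not computed. With an equal covered length cKO was higher in 6 of 6 pairs, but the lowest cKO list, at 16.3%, was below the highest control list, at 17.8%. The mean was 36.5 ± 9.87% in cKO and 18.6 ± 3.26% in control (SD, n = 6 lists each), a difference of 17.9 ± 9.49 points (limma adjusted p = 0.0314). Unlike Oxtr and Ptgfr, its cKO coverage was higher in each later Pgr-Cre IIS list than in the one before, while the control values followed no such order.

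The Adra1a span is 136 kb long, and its peaks lay mainly at both ends. In the lower-coordinate end, 25 kb and the flank, peaks covered 16.6 kb on average in cKO and 11.2 kb in control, 5.37 ± 2.41 kb more. In the higher-coordinate end, 38 kb and the flank, they covered 23.8 kb in cKO and 13.0 kb in control, 10.8 ± 5.23 kb more. The 73.0 kb between held 2.83 to 23.9 kb of peaks in cKO lists and 0 to 3.38 kb in control lists, 8.83 ± 7.84 kb more. All 3 parts were higher in cKO in 6 of 6 pairs. In the middle the values for cKO were highest at GD14.5 IS (23.9 kb) and GD18.5 IS (16.5 kb), made of many short peaks. Peak names in the GD14.5 IS lists of Pgr-Cre cKO and their control may point to a separate round of peak calling, which the labels do not state. That pair had the largest Adra1a difference, at 34.2 points. Without it the Adra1a difference was 14.6 points (limma adjusted p = 0.0422).

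**Figure D3:**
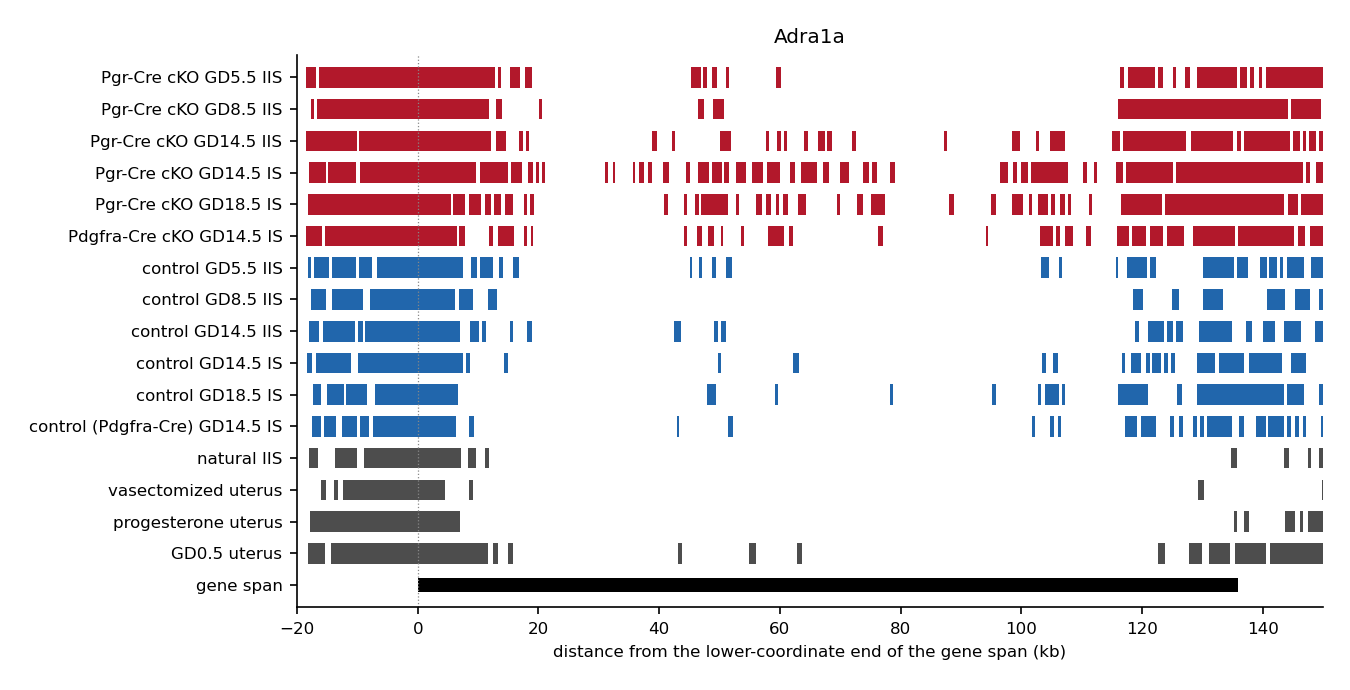
Peaks along Adra1a in the 16 lists (rows, cKO in red above control in blue above B6CBAF1/J in grey), by distance in kb from the lower-coordinate end of the gene span (black bar). The middle of the span holds 2.83 to 23.9 kb of peaks in cKO lists and 0 to 3.38 kb in control lists.

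The 4 receptors for prostaglandin E2 did not share one pattern. Ptger2 and Ptger4, the EP2 and EP4 receptors that couple to Gs, were higher in cKO in 5 of 6 pairs each and did not pass the test. Ptger2 averaged 72.5 ± 9.90% in cKO and 64.1 ± 5.49% in control (SD, n = 6 lists each), a difference of 8.43 ± 8.86 points (limma adjusted p = 0.150). The exception among its pairs was GD14.5 IS, with 58.4% in cKO and 65.3% in control. Its start lay inside a long peak in every list, 27.7 to 41.7 kb in cKO and 22.1 to 36.3 kb in control, which began 14.8 to 34.3 kb before the gene.

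Ptger4 averaged 11.5 ± 6.94% in cKO and 5.74 ± 5.01% in control (SD, n = 6 lists each), a difference of 5.76 ± 7.89 points (limma adjusted p = 0.252). Its differences were close together in 5 pairs, from 7.41 to 9.93 points, and the GD8.5 IIS pair stood apart with 0% in cKO and 10.2% in control. Without that pair the difference was 8.96 points (limma adjusted p = 0.0143). As the pair left out is the one that went the other way, this fit is no separate test of a gain. Of 14 alternatives it was the only 1 in which Ptger4 passed. With an equal covered length Ptger4 was not tested, as its mean fell under 5%, and 3 pairs were higher and 0 lower in cKO. Within 10 kb of the start, peaks covered 1.01 to 9.23 kb in cKO lists and 0.771 to 4.96 kb in control lists. Only 4 cKO lists and 2 control lists had a peak over the start. That peak reached at most 1.05 kb into the gene, and began 0.732 to 7.57 kb before it in cKO and 0.566 to 1.02 kb before it in control.

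Ptger3, the EP3 receptor, which couples to Gi and favours contraction, averaged 38.3 ± 11.8% in cKO and 39.8 ± 10.2% in control (SD, n = 6 lists each). The difference was −1.49 ± 15.7 points (limma adjusted p = 0.922), with 3 pairs higher and 3 lower in cKO, from −23.3 points at GD14.5 IIS to 18.4 points in the Pdgfra-Cre pair. Its start peak was present in all 16 lists, 14.7 to 21.8 kb long in cKO and 16.0 to 20.4 kb long in control. Peaks within 10 kb of the start covered 17.1 to 20.001 kb in cKO lists and 17.8 to 19.8 kb in control lists, so the spread in the gene's coverage came from shorter peaks farther along its 77.9 kb span. Ptger3 had 97 peaks in the cKO lists and 97 in the control lists.

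Of the 332 member peaks in the 6 cKO lists, 49.7% overlapped a peak of the paired control list by at least 1 base, from 41.3% in the Pdgfra-Cre pair to 60.5% at GD5.5 IIS. Over all peaks of the 6 cKO lists that share was 67.3%, from 60.6% in the Pdgfra-Cre pair to 71.3% at GD14.5 IIS. The 6 control lists held 261 member peaks. Adra1a alone had 138 peaks in cKO lists and 78 in control lists, while Oxtr had 17 in cKO lists and 15 in control lists and Ptgfr 39 in cKO lists and 38 in control lists. The Oxtr and Ptgfr differences thus lay in longer peaks at nearly equal numbers.

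Read pair by pair, few members moved far. A change of at least 25 points either way was met by 1 member in 1 pair, Adra1a at GD14.5 IS (34.2 points), and by 0 of 9 in the other 5 pairs. With an equal covered length that change was 23.96 points, under the 25 required. Among all genes the share past that size was 2.98% in the GD5.5 IIS pair, 5.02% at GD8.5 IIS, 6.16% at GD14.5 IIS, 5.97% at GD14.5 IS, 4.68% at GD18.5 IS and 3.82% in the Pdgfra-Cre pair.

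Across stages and sites within a genotype, 0 of 9 members changed by 25 points in any of 8 comparisons. In control lists the share of all genes that did was 2.83% for GD8.5 minus GD5.5 IIS, 3.09% for GD14.5 minus GD8.5 IIS, 1.97% for GD18.5 minus GD14.5 IS and 2.19% for GD14.5 IS minus IIS. In Pgr-Cre cKO lists it was 2.14% for GD8.5 minus GD5.5 IIS, 2.54% for GD14.5 minus GD8.5 IIS, 3.02% for GD18.5 minus GD14.5 IS and 3.08% for GD14.5 IS minus IIS. The largest of these steps for a member was −20.7 points, for Ptger4 in cKO from GD5.5 to GD8.5 IIS.

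**Figure D4:**
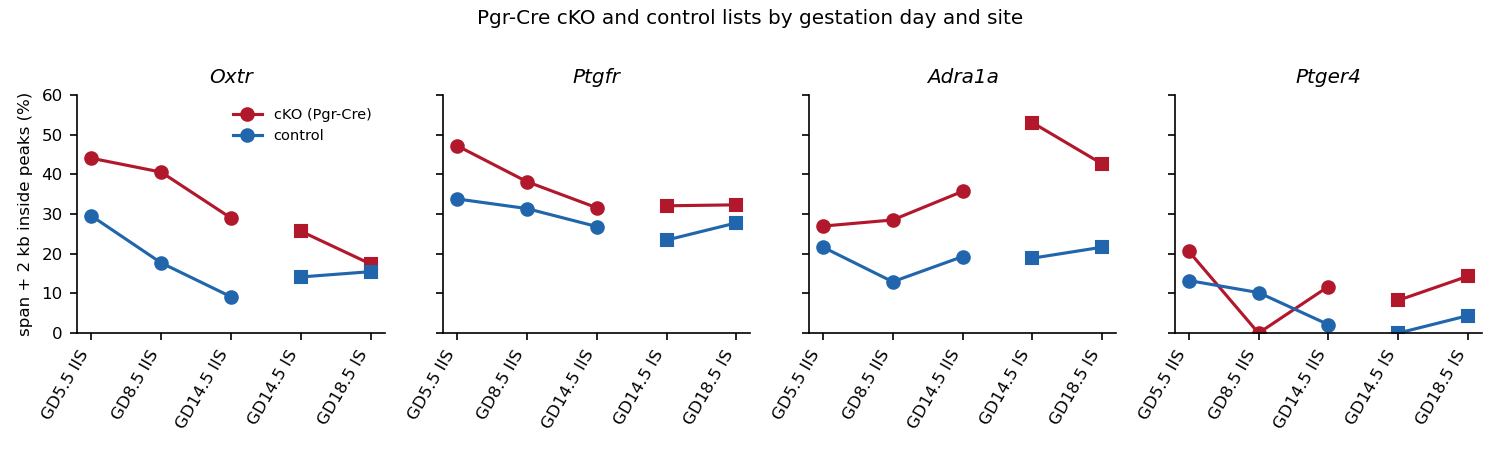
Coverage of Oxtr, Ptgfr, Adra1a and Ptger4 (percent of span plus 2 kb inside peaks) by gestation day in Pgr-Cre cKO (red) and control (blue) lists, circles for IIS and squares for IS. Oxtr coverage is 44.1%, 40.6% and 29.01% in cKO and 29.6%, 17.7% and 9.17% in control over the 3 IIS stages. Each point is 1 pooled list without an error bar.

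In the B6CBAF1/J set Oxtr coverage was highest in the natural mating list. That list is labelled IIS and the other 3 lists uterus. Mating and site therefore cannot be told apart in any comparison with natural mating, for Oxtr or for the receptors below. Oxtr was covered at 38.5% after natural mating and 27.8% after vasectomized mating at GD5.5, at 16.8% after progesterone, and at 9.31% at GD0.5. Natural mating minus GD0.5 was 29.2 points, the only member change past 25 points in that comparison, beside 3.93% of all genes. Within 10 kb of the start peaks covered 8.22 kb after natural mating, 5.94 kb after vasectomized mating, 3.60 kb after progesterone and 1.99 kb at GD0.5. With the 4 lists cut to an equal covered length Oxtr was at 18.3% after natural mating, 6.09% after vasectomized mating and 0% after progesterone, against 6.53% at GD0.5. Natural mating minus GD0.5 was then 11.8 points, and the order of the other 3 lists was not kept.

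The other receptors did not follow Oxtr in this set. Ptger3 was covered at 18.53% after natural mating, 34.7% after vasectomized mating and 42.6% after progesterone, against 17.6% at GD0.5, and progesterone minus GD0.5 was 25.03 points, beside 5.24% of all genes past 25 points. That difference was 9.90 points with an equal covered length and 23.3 points with 5 kb flanks, both under 25 points. Adra1a was at 8.79% after natural mating, 5.73% after vasectomized mating and 7.31% after progesterone, against 19.4% at GD0.5. Its higher-coordinate end held 0.979 to 1.28 kb of peaks after natural mating, vasectomized mating or progesterone and 9.34 kb at GD0.5. Ptger4 had no peak after either mating or progesterone and 13.2% coverage at GD0.5.

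Ptgfr was at 17.3% after natural mating, 3.94% after vasectomized mating and 7.59% after progesterone, against 9.03% at GD0.5. Ptger2 stayed highly covered, at 83.1% after natural mating, 87.7% after vasectomized mating and 94.8% after progesterone, against 79.4% at GD0.5. Vasectomized mating minus GD0.5 and natural minus vasectomized mating each had 0 of 9 members past 25 points. The share of all genes past that size was 3.74% in the first of these and 1.82% in the second. Peaks of this set were called separately from those of the Kdm6b set, so levels were not compared between the sets.

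**Figure D5:**
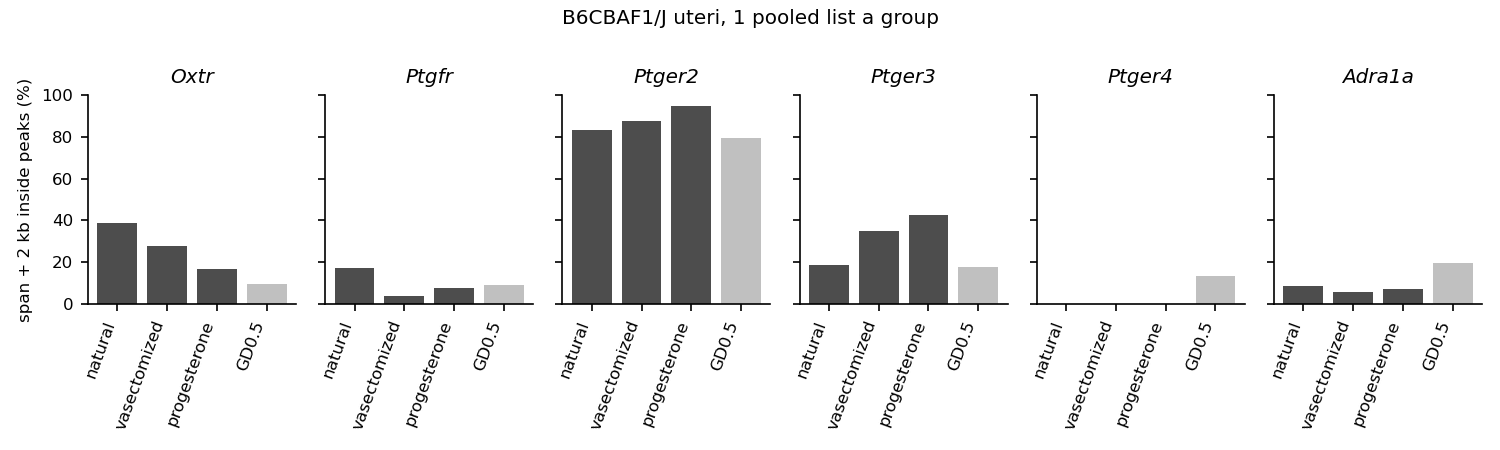
Coverage of 6 receptors (bars, percent of span plus 2 kb inside peaks) in the B6CBAF1/J lists, with natural mating, vasectomized mating and progesterone in dark grey and GD0.5 in light grey. Oxtr runs from 38.5% after natural mating to 9.31% at GD0.5, and Ptger4 has no peak outside GD0.5. Each bar is 1 pooled list without an error bar.

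Among 42 other genes of these signalling pathways, 26 could be tested, 1 was higher in cKO, 0 were lower and 25 did not pass. Their median difference was 0.39 points, against 0 over all tested genes. The one that rose was Rxfp2, the receptor for the relaxin-like hormone INSL3, at 30.6% in cKO and 16.7% in control, which differed by 13.8 ± 5.16 points (limma adjusted p = 0.0143, 6 of 6 pairs). The 2 others named for their size had large mean differences without passing. Ednrb, an endothelin receptor, differed by 15.8 ± 13.8 points (adjusted p = 0.0977, 6 of 6 pairs), and Chrm2, a muscarinic receptor, by 11.96 ± 7.85 points (adjusted p = 0.0510, 6 of 6 pairs).

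The neighbours of the 3 receptors varied. Cav3, the muscle caveolin gene 0.811 kb from Oxtr, was at 64.6% in cKO and 52.3% in control, which differed by 12.3 ± 12.1 points in the same direction in 5 of 6 pairs (limma adjusted p = 0.129). Rad18, on the other side, was at 0.0103% in cKO and 0% in control. Next to Ptgfr, Ifi44l differed by 9.25 ± 18.3 points (adjusted p = 0.419) and Gipc2, 256 kb away, by 20.96 ± 4.93 points in 6 of 6 pairs (adjusted p = 0.00452). Next to Adra1a, Dpysl2 differed by 1.08 ± 1.20 points (adjusted p = 0.322) and Stmn4 by 7.78 ± 13.6 points (adjusted p = 0.363).

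The genes whose coverage followed Oxtr most closely over the 12 lists of the Kdm6b set, among 9831 genes elsewhere in the genome, were A930018P22Rik (r = 0.940), Tnfsf4 (0.934), Erv3 (0.921), Olfr90 (0.921) and Mettl24 (0.918). Those closest to Adra1a were Sil1 (r = 0.970), Frmd4a (0.957), Cd96 (0.956), Rnf144a (0.953) and Mroh9 (0.949). These are Pearson correlations given as a description, and the 12 points share the genotype difference and the extent of each list.

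The labelled cell type was set beside the mark over marker genes. Of 8 fibroblast markers, Pdgfrb, Col1a1, Col1a2, Dcn, Lum and Vim were at 0 in all 12 lists of the Kdm6b set. Pdgfra was at 23.4% in cKO and 22.9% in control, and Thy1 at 16.1% in cKO and 8.30% in control. A level of 0 does not by itself mark the cell type, since the immune markers Cd68 and Cd79a were also at 0 in all 12 lists. The other immune markers, Ptprc, Cd3e, Itgam and Ncr1, averaged 61.4 to 91.3% in cKO and 61.2 to 89.4% in control. Epithelial markers averaged 92.8% in cKO and 89.2% in control. Of 8 smooth muscle markers, Des, Tagln and Smtn were at 0 in all 12 lists. Actg2 averaged 89.97% in cKO and 96.8% in control, and Myocd 64.2% in cKO and 63.1% in control. Cnn1 averaged 48.7% in cKO and 52.1% in control, and Acta2 35.98% in cKO and 40.2% in control. Myh11 averaged 0.448% in cKO and 0.923% in control. The list mean of the 8 was 25.7 to 35.04% in cKO and 28.6 to 34.3% in control. The mean of the 5 endothelial markers was 22.8 to 34.6% in cKO lists and 17.8 to 28.2% in control lists. This mean was higher in cKO in 6 of 6 pairs, and no marker was at 0 in all lists. Pecam1, Cdh5, Kdr and Tek were higher in cKO on average, while Tie1 was lower, at 66.4% in cKO and 70.5% in control. The part of these markers in the receptor differences was not tested. A change of the mark in each cell and a change in the make-up of the preparation cannot be told apart in pooled lists. Kdm6b itself was covered at 0 to 7.1% and does not report on the deletion.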

How the data were processed

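H3K27me3 CUT&RUN peaks of mouse uterine fibroblasts were used in 16 lists covering 48 of the 80 samples, 3 pooled samples a list; the other 32 samples, 20 of them inputs, were not analysed here. The authors aligned reads to mm10 with STAR 2.7.5c and called broad peaks with MACS2 2.2.7.1, per the labels' descriptions, with samtools 1.10 and bedtools 2.29.1; Picard is named in the submitters' processing notes, and the peak lists' names carry calling settings that the labels do not explain. One Pgr-Cre cKO GD14.5 IS sample titled as input but labelled with the H3K27me3 antibody was placed with the inputs, and the labels of 3 other samples name that group's peak list. The deposited lists give each peak a fold over background, a ratio, and −log10 p and −log10 q, all the authors' own and unadjusted here. The lowest −log10 p in a list was 0.330 to 0.349, so the lists reach far into weak peaks, and a longer list can raise the coverage of many genes.

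The percent of each gene span (GRCm38.p6, chromosomes 1 to 19 and X) plus 2 kb on either side inside peaks was computed for 21627 protein-coding genes. Paired differences were tested with limma 3.58.1 (R 4.3.3) on 10204 genes with a mean of at least 5%, with Benjamini-Hochberg adjustment, and p-values measure the spread between pairs of stages and Cre lines. The test was checked on simulated differences, in which 200 of 10204 genes were shifted by 10, 20 or 40 points. It recovered 28.4% of the shifts of 10 points, 55.2% of those of 20 points and 86.1% of those of 40 points. Of its calls 8.34% were false, a share above the threshold set for the adjusted p. A gene that did not pass can therefore still differ by 10 or 20 points. In the simulation the sign of each difference was drawn separately for each gene and pair. This removed effects shared by the genes of a list, such as its covered length, so these rates may not hold in the real lists. Single lists were compared without a test. The 2 sets were kept apart. Members are the listed receptors in every result; other pathway genes were named if they passed or were among the 4 largest differences (1 result is not reported here), likeness genes as the 5 highest correlations over 1 Mb away, and neighbours as the nearest gene on each side. Members and lists were chosen with earlier results of these data known. Alternatives tried are given in the closing section.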

Additional observations from a re-analysis of the deposited data

Results flagged for a closer look

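One value stood apart from the other 5 pairs. The Ptger4 difference between cKO and control was −10.2 points in the Pgr-Cre GD8.5 IIS pair, with 0% in cKO and 10.2% in control, and 7.41 to 9.93 points in the other 5. The 6 differences of 7 members were looked at in this way, by Dixon's 95% critical value, which chance passes in about 1 of 20 groups. The cause was not tested.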

How the results depend on the processing

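The number of members higher in cKO was 3 with all pairs and 2 kb flanks. With only peaks of −log10 q of at least 2 (1 member tested) it was 0, an outcome fixed in advance. Oxtr, Ptgfr and Adra1a had no such peak in any list. In the Kdm6b set such member peaks lay only in control lists, so no member could be higher in cKO. The number of members higher in cKO was 0 with an equal covered length and 0 with no filter on mean coverage. It was 1 in the unpaired fit, 1 with the 5 Pgr-Cre pairs alone and 1 in a window of 2.5 kb on either side of the start, where Adra1a, with no annotated start, was measured at the more covered end of its span and showed a difference of 0. Leaving out 1 pair at a time gave 0 to 1. It was 2 with no flank and 2 with a trend and robust prior, and 3 with 5 kb flanks, with the median difference subtracted, and with genes left out that had no difference in any pair. That last alternative, chosen after seeing the data, left 9843 tested genes, of which 853 were higher and 831 lower in cKO. The number that passed as lower in cKO was 0 in every alternative run. The fit on the Pgr-Cre pairs alone is the same as the fit without the Pdgfra-Cre pair, which leaves 15 distinct alternatives for each of the 3 members that passed. Oxtr and Ptgfr kept a positive difference in all 15, and Oxtr passed in 6, Ptgfr in 5 and Adra1a in 8 of them. Ptger3, at −1.49 points with all pairs, was at 2.87 without the GD14.5 IIS pair and 0.976 without the Pgr-Cre GD14.5 IS pair, and ranged from −5.47 to 2.87 without 1 pair. Over all genes, 814 were higher and 658 lower in cKO, against 267 and 374 with an equal covered length, 376 and 141 with no filter, 514 and 608 with the Pgr-Cre pairs alone, 630 and 403 with no flank, 14 and 8 in the start window, 0 and 5 with −log10 q of at least 2, and 402 to 518 and 191 to 608 without 1 pair. Changes of at least 25 points numbered 3 over the 18 single comparisons and 9 members, 49 at 10 points, 0 at 50 points, 0 with an equal covered length and 8 with −log10 q of at least 2. The share of all genes was computed only for 25 points with the lists as deposited. The counts at the other settings therefore do not show whether members changed more or less often than other genes. The share of cKO member peaks shared with control was 49.7%, and 33.7% where the control peaks had to cover 50 percent of the cKO peak. Over all cKO peaks, an alternative also chosen after seeing the data, these shares were 67.3% and 51.6%. No paired analysis by replicate number was possible because samples were pooled before peaks were called. The missing read depth limits every value.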
